A study of Homo sapiens with 10 samples.

Results

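This comparison set the acetyltransferase inhibitor A-485 directly against the BET bromodomain inhibitor JQ1, without the vehicle as the reference. Its members were the 2 A-485 and the 2 JQ1 libraries, 4 of the 10 libraries of the series, chosen by treatment label. All 59204 human genes listed were eligible, of which 24694 had a total count and 15663 a labelled count in at least 1 of the 4. K562, an established erythroleukaemia-like line from a chronic myeloid leukaemia, was the only cell line, so every value is from one genetic background. In the A-485 group, cells received 1 µM A-485 for 2 h. In the JQ1 group they received 1 µM JQ1 for the same time. DMSO vehicle cells (2 libraries) are shown beside the drugs as levels. All groups were given 100 µM 4-thiouridine, a uridine analogue taken up into new RNA, in the last 1 h. In SLAM-seq the analogue shows up as T-to-C changes in the reads: labelled counts are reads from RNA made in that hour and total counts are all human reads of a gene. The DMSO libraries and the remaining 4 libraries (AZ-5576 and actinomycin D) entered the fits to estimate the spread. They also counted towards the minimum count that decides which genes are tested. With the 4 A-485 and JQ1 libraries alone, 6999 genes were tested in labelled RNA, against 7996 with all 10.

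CBP and p300 are paralogous acetyltransferases that acetylate histone tails at enhancers and promoters as well as many transcription factors. The BET proteins bind acetylated lysines through bromodomains and help bring the elongation kinase P-TEFb to RNA polymerase II. A-485 blocks the catalytic site of CBP and p300, whereas JQ1 occupies the BET bromodomains and displaces these proteins from chromatin. Both steps act on transcription from acetylated chromatin, and in K562 cells the erythroid regulators GATA1 and TAL1 and the growth regulator MYC are driven by strong enhancers.

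Sequencing depth was similar in the 4 libraries. Total human counts were 16470682 and 16825319 with A-485 and 16750242 and 17060335 with JQ1, and spike-in counts were 1970307 and 1984482 with A-485 and 2212752 and 2112838 with JQ1. Labelled counts were far fewer, 411716 and 447455 with A-485 and 342847 and 322771 with JQ1, so labelled values of single genes carry larger errors than total values. The erythroid and megakaryocytic markers summed to 3991.5 and 4189.7 CPM (counts per 1000000) with A-485, 4101.3 and 4685.7 CPM with JQ1, and 4466 and 4561.4 CPM in DMSO. The 19 markers of other lineages summed to 157 and 149 with A-485, 155 and 155 with JQ1, and 164 and 168 in DMSO, with MS4A1, MPO and KRT5 at 0 in all 6. The labels do not say whether the 2 libraries of a group came from separate cultures, so p-values measure the spread between these libraries, which may be technical. In the total counts the 2 JQ1 libraries differed more from each other (chi-square per degree of freedom 12.5) than the 2 A-485 libraries (4.13). These are bulk samples, in which less RNA per cell and fewer cells of a kind cannot be told apart.

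The A-485 libraries held more labelled RNA per spike-in read than the JQ1 libraries. Scaled to spike-in reads, the labelled human counts came to 209 and 225 per 1000 with A-485, against 155 and 153 with JQ1, and 237 and 239 in DMSO. The A-485 libraries lay above both JQ1 libraries by a mean ratio of 1.41 and below both DMSO libraries. Nuclear transcripts gave a ratio of 1.43 and mitochondrial transcripts one of 1.08. For total RNA the human to spike-in quotient was 8.36 and 8.48 with A-485 and 7.57 and 8.07 with JQ1, a ratio of 1.08. With 2 libraries against 2, the smallest two-sided exact permutation p is 0.33, so these library-wide ratios were not tested. Because fly RNA went into RNA already purified, the ratios are per amount of RNA, not per cell.

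**Figure D1:**
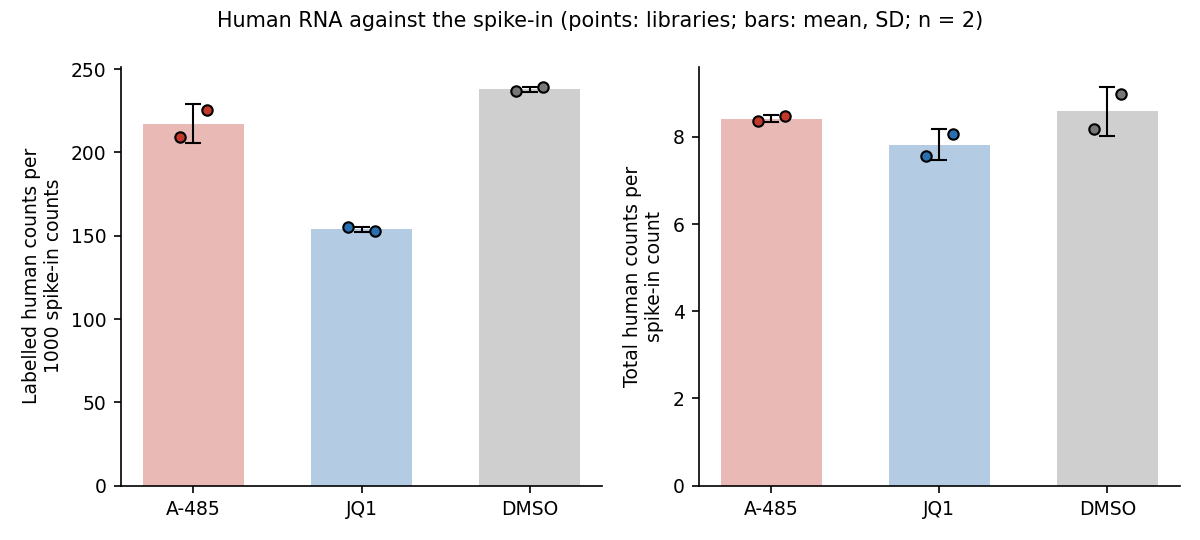
Labelled human counts per 1000 spike-in counts (left) and total human counts per spike-in count (right) in the A-485, JQ1 and DMSO libraries; points are libraries, bars the mean and whiskers the SD of 2. For labelled RNA both A-485 points (209 and 225) lie above both JQ1 points (155 and 153), and for total RNA the gap is much smaller.

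On the spike-in scale, many more genes were higher than lower with A-485. Tests were edgeR quasi-likelihood tests, two-sided, with Benjamini-Hochberg adjustment over all genes tested and a threshold of 0.05. In labelled RNA, 7996 genes were tested: 1984 (24.8%) were higher and 251 (3.14%) lower with A-485 than with JQ1, and the median log2 ratio was 0.72. Of the 1984, the DMSO mean lay between the 2 drugs for 1302, above both for 680 and below both for 2. Among the 251 it lay between for 133, above both for 97 and below both for 21. Total RNA moved less: 784 of 14572 genes (5.38%) were higher and 175 (1.2%) lower, with a median of 0.13. The labelled share of a gene, its labelled against its unlabelled counts, needs no spike-in. By that measure 1032 of 7960 genes (13%) were higher and 123 (1.55%) lower with A-485.

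These counts depend on the scaling and on single libraries. With TMM scaling, which sets the bulk of genes to no change, the median labelled log2 value fell by 0.70 and the median total one by 0.15. The labelled calls then became 434 higher (5.43%) and 673 lower (8.42%), and the total calls 339 higher (2.33%) and 278 lower (1.91%). Without A-485 replicate 1 the labelled calls were 1241 higher and 155 lower, without A-485 replicate 2 they were 889 and 143, without JQ1 replicate 1 they were 1441 and 166, and without JQ1 replicate 2 they were 1234 and 167. For total RNA, leaving out A-485 replicate 1 gave 277 and 94 calls and A-485 replicate 2 gave 317 and 105. For the labelled share, leaving out A-485 replicate 1 gave 561 and 66 calls, A-485 replicate 2 gave 391 and 52, and JQ1 replicate 2 gave 543 and 87.

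Labelled and total RNA mostly pointed the same way. Of the genes called higher in labelled RNA, 522 were also called higher in total RNA and 1 was called lower. Among the genes called lower, 99 were also called lower in total RNA, 152 passed no test there and none was called higher. The median total log2 ratio was 0.27 over the 1984 labelled-higher genes and -0.35 over the 251 labelled-lower genes.

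**Figure D2:**
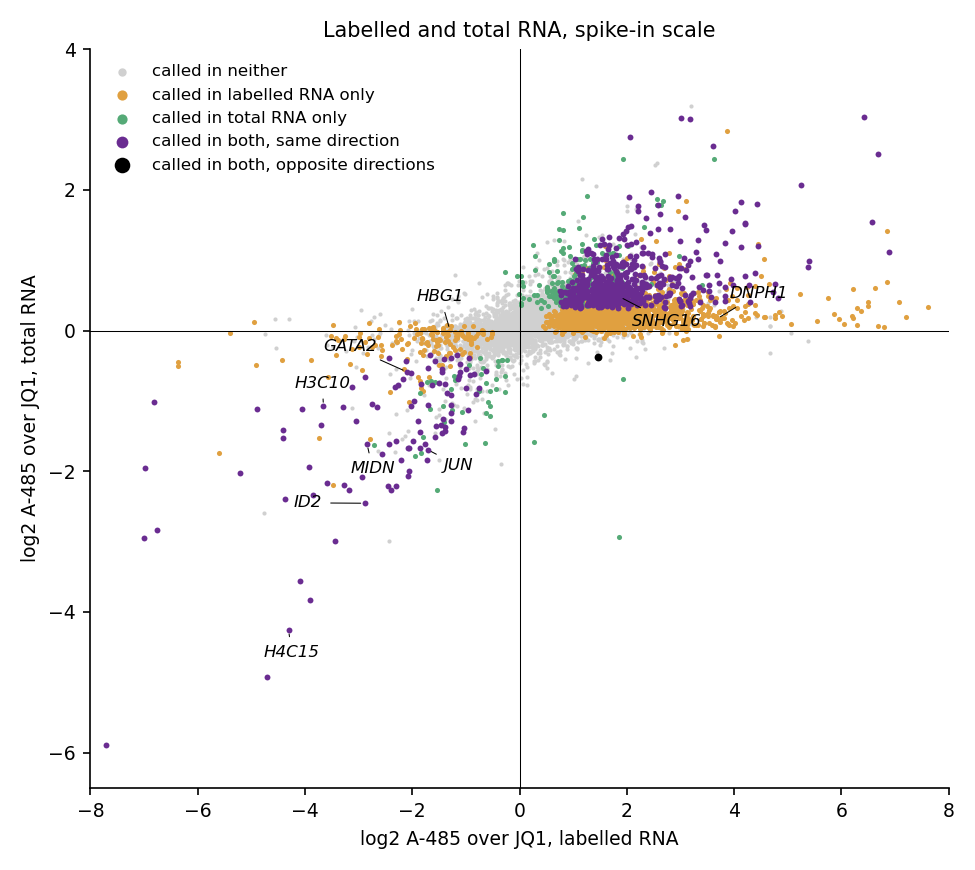
Each point is 1 of the 7996 genes tested in both fits, with its log2 ratio of A-485 over JQ1 in labelled RNA (x axis) and in total RNA (y axis), coloured by where it was called. Most points are spread more widely along the labelled axis than along the total axis, while ID2 (-2.88 labelled, -2.45 total) and JUN (-1.72, -1.69) lie low on both; the points farthest out along the x axis include genes with no labelled count under one drug, whose fitted values are not folds.

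Promoter sequences are given for some genes that carry the contrast, because genes lower with A-485 held a TATA motif more often than other genes. All printed windows were picked for holding the marked motif, so they do not stand for their sets. H4C14, H4C15, ID2, ID3, IER2, JUN, JUND and PIM2, also lower with A-485, had no TATAAA in their windows. The windows are the 250 bases before the RefSeq start of each gene (GRCh38.p14), read 5′ to 3′ on the strand of the gene. Capitals mark the hexamer TATAAA on either strand, 20 to 40 bases before the start.
H3C10 (chr6:27809801-27810050, strand +): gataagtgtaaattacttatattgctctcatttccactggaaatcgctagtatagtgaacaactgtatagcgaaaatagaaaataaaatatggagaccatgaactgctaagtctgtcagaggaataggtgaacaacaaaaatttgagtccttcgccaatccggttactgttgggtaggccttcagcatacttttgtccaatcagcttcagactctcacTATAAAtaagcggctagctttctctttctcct
H2BC21 (chr1:149886683-149886932, strand -): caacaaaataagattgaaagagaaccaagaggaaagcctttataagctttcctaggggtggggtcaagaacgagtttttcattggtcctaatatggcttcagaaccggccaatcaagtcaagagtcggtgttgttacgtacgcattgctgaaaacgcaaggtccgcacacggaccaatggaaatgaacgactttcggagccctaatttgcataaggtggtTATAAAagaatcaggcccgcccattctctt
ID1 (chr20:31605039-31605288, strand +): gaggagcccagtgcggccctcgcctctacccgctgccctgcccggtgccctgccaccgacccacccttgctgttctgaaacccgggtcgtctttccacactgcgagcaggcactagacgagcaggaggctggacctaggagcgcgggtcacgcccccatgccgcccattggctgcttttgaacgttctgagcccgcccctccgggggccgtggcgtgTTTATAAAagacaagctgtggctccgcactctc
PPP1R15A (chr19:48872171-48872420, strand +): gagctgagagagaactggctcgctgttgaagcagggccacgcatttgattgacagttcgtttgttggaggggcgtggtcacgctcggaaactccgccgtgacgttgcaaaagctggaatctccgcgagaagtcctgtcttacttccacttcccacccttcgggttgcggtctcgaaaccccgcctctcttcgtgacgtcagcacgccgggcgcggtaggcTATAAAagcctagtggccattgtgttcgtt
HEXIM1 (chr17:45148225-45148474, strand +): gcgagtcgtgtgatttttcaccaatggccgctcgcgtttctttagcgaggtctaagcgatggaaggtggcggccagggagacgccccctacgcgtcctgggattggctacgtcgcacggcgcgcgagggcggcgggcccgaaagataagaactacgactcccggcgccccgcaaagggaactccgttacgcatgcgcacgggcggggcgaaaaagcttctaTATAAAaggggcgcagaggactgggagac
INSIG1 (chr7:155297628-155297877, strand +): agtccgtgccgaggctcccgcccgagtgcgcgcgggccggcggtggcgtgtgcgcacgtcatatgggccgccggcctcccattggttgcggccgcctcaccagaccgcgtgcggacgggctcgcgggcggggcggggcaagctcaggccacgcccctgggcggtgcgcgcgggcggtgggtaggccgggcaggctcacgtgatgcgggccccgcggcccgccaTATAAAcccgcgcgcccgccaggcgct
MRPL3 and GTF3C6 are among the genes with the largest higher values with A-485, and in their windows capitals mark CCGGAAG, the core bound by ETS-family factors.
MRPL3 (chr3:131502972-131503221, strand -): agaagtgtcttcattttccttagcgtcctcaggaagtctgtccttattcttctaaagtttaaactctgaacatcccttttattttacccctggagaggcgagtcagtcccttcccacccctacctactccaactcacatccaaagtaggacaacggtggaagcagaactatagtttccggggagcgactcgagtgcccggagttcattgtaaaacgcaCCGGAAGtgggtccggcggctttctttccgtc
GTF3C6 (chr6:110958456-110958705, strand +): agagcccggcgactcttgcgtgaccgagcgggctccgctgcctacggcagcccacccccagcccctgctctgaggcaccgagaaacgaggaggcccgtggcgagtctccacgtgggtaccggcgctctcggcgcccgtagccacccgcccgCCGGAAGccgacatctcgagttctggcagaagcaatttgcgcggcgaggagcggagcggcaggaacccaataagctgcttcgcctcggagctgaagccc

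Over the promoter windows that could be matched by symbol (6159 of the 7996 genes tested), TATAAA on either strand was present in 38 of 184 genes lower with A-485 (20.7%) and in 57 of 1588 genes higher with it (3.59%), beside 4.85% of all tested and 11.1% of all 27305 windows. Within 20 to 40 bases of the start the shares were 16.8% of the lower genes, 0.756% of the higher genes and 1.9% of all tested. Without the histone genes, 17.4% of the lower genes still held TATAAA, beside 4.72% of all tested. The total RNA calls gave 25% of lower genes, 3.67% of higher genes and 5.15% of all tested. CCAAT was in 54.3% of lower, 35.3% of higher and 37.5% of all tested labelled genes. CCGGAAG went the other way, with 10.3% of lower, 24.8% of higher and 19.9% of all tested. The E-box CACGTG was in 8.15% of lower, 10.9% of higher and 9.90% of all tested genes. The letters of GATA factors, given as AGATAA, were in 4.35%, 3.65% and 3.82% for the same sets. For AP-1, searched as TGANTCA, matches were in 4 of 184 lower genes, 3.59% of higher genes and 3.47% of all tested, and for STAT factors, searched as TTCNNNGAA, the shares were 4.89%, 5.60% and 5.52%. The cAMP response element TGACGTCA was in 4.35%, 3.02% and 3.62%, and the consensus of NRF1 in 0.543% (1 gene), 2.71% and 2.44%. These are letter matches described without a test.

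Replication-dependent histone genes had the lowest labelled median of the lists. Their messages supply nucleosome proteins in S phase and mostly end without a poly(A) tail, so a kit that primes on poly(A) counts the tailed part only. In labelled RNA 13 of the 16 measured members were lower with A-485 and none was higher, and in total RNA 16 of 23 were lower, beside 3.14% and 1.2% of all genes. Under TMM all 16 were lower in labelled RNA, beside 8.42% of all genes. The median labelled log2 ratio was -3.53 against 0.72 over all genes, or -3.33 with the one gene at 0 set to its bound. H3C10, a histone H3 gene, had 9 and 11 labelled counts with A-485, 146 and 133 with JQ1 and 24 and 47 in DMSO. The DMSO libraries lay between, with A-485 below and JQ1 above, and the A-485 to JQ1 ratio was log2 -3.66 ± 0.48 SE, adjusted p = 6.06e-14. Its total counts were 517 and 499 with A-485, against 1126 and 1216 with JQ1 and 525 and 668 in DMSO (log2 -1.08 ± 0.13 SE, adjusted p = 5.2e-07). H2BC21, a histone H2B gene, had 0 and 7 labelled counts with A-485 against 89 and 80 with JQ1 and 24 and 12 in DMSO. In total RNA H2BC21 stood at 233 and 200 with A-485, 653 and 608 with JQ1 and 252 and 273 in DMSO (log2 -1.41 ± 0.16 SE, adjusted p = 1.17e-07). The A-485 total counts of H2BC21 lay just below DMSO and the JQ1 counts well above it. H4C15 and H4C14 are near-identical histone H4 genes whose reads cannot be assigned with certainty. H4C15 had 12 and 3 total counts with A-485, 156 and 162 with JQ1 and 8 and 5 in DMSO, and H4C14 had 9 and 12 with A-485, 166 and 164 with JQ1 and 8 and 11 in DMSO. For both genes the A-485 and DMSO libraries overlapped and the JQ1 libraries were far above. Leaving out JQ1 replicate 1 or 2 lowered the labelled count of histone calls to 8 and 7, and leaving out A-485 replicate 1 or 2 lowered the total count to 9 and 10. Without A-485 replicate 1 the labelled H2BC21 ratio was -3.45 and without replicate 2 it was -9.30, since one A-485 library held 0, and DESeq2 gave it an adjusted p of 0.0998.

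BOLA1 is an iron-sulphur cluster assembly gene in the histone cluster on chromosome 1 (chr1:149887890-149900798, hg38). It had the widest total RNA difference among genes eligible for naming, those called without overlap and with a mean of at least 50 counts. Its total counts were 3 and 0 with A-485, 99 and 111 with JQ1 and 1 and 5 in DMSO. Only the JQ1 libraries held more than a few BOLA1 reads, and the ratio was log2 -5.89 ± 1.09 SE, adjusted p = 4.55e-06. In labelled RNA it had no count with A-485 or in DMSO and 27 and 29 with JQ1, at least 17.1-fold lower with A-485 by a bound of 3 counts over the A-485 group. In GENCODE 29 BOLA1 overlaps H2AC21 on the opposite strand. H2AC21 had 0 total counts over the 4 A-485 and JQ1 libraries, and how reads of the overlap were assigned could not be checked. Without A-485 replicate 1 its total log2 ratio was -9.61 and without A-485 replicate 2 -4.94.

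Immediate early genes, which respond quickly to growth signals, were called only in the lower direction with A-485. In labelled RNA 15 of 38 measured members were lower and none was higher, beside 3.14% of all genes lower. In total RNA 20 of 44 were lower and none higher, beside 1.2% of all genes lower. TMM gave 22 lower in labelled and 20 in total RNA, with none higher, beside 8.42% and 1.91% of all genes lower. The spike-in medians were -1.11 in labelled and -1.02 in total RNA. JUN, a subunit of the AP-1 transcription factor, had 26 and 22 labelled counts with A-485, 85 and 88 with JQ1 and 93 and 60 in DMSO (log2 -1.72 ± 0.40 SE, adjusted p = 0.000226). Its total counts were 111 and 96 with A-485, 365 and 367 with JQ1 and 273 and 288 in DMSO (log2 -1.69 ± 0.22 SE, adjusted p = 9.42e-07). The labelled share of JUN was alike under both drugs (23.4% and 22.9% with A-485, 23.3% and 24.0% with JQ1), and the share ratio was log2 -0.03 ± 0.63 SE, adjusted p = 0.98. IER5, an early gene that feeds back on heat shock factor, had 88 and 118 labelled counts with A-485, 540 and 413 with JQ1 and 219 and 198 in DMSO (log2 -2.08 ± 0.22 SE, adjusted p = 4.33e-17). MIDN, which encodes midnolin, a protein that takes early-gene products to the proteasome, had 53 and 57 with A-485, 480 and 387 with JQ1 and 195 and 219 in DMSO (log2 -2.84 ± 0.25 SE, adjusted p = 3.91e-27). In total RNA MIDN counts were 2445 and 2379 with A-485, 8214 and 7912 with JQ1 and 3912 and 4332 in DMSO. For MIDN and IER5 the DMSO libraries lay between the drugs, with A-485 below and JQ1 above. IER2 and JUND, both early transcription regulators, were lower by the same test, at log2 -1.28 ± 0.19 SE, adjusted p = 9.02e-10 and log2 -1.15 ± 0.20 SE, adjusted p = 9.2e-07.

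The ID genes encode helix-loop-helix proteins without a DNA-binding region that hold back differentiation factors. ID1 had 59 and 48 labelled counts with A-485, 272 and 220 with JQ1 and 258 and 230 in DMSO (log2 -2.07 ± 0.27 SE, adjusted p = 1.17e-12). ID2 had 22 and 18 with A-485, 172 and 153 with JQ1 and 250 and 224 in DMSO (log2 -2.88 ± 0.34 SE, adjusted p = 2.79e-16). ID3 had 13 and 5 with A-485, 138 and 151 with JQ1 and 148 and 183 in DMSO (log2 -3.86 ± 0.45 SE, adjusted p = 4.77e-20). The A-485 libraries were below every JQ1 and DMSO library for all 3 genes, and ID1 under JQ1 overlapped DMSO in counts. The order in total RNA was the same. ID2 total counts were 133 and 111 with A-485, 704 and 758 with JQ1 and 855 and 817 in DMSO (log2 -2.45 ± 0.17 SE, adjusted p = 7.76e-14). ID1 total counts were 206 and 180 with A-485, 928 and 764 with JQ1 and 836 and 802 in DMSO, again with A-485 below every JQ1 and DMSO library, and ID3 gave log2 -2.34 ± 0.16 SE, adjusted p = 2.06e-13. Without A-485 replicate 1 the labelled ID3 ratio was -4.70.

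**Figure D3:**
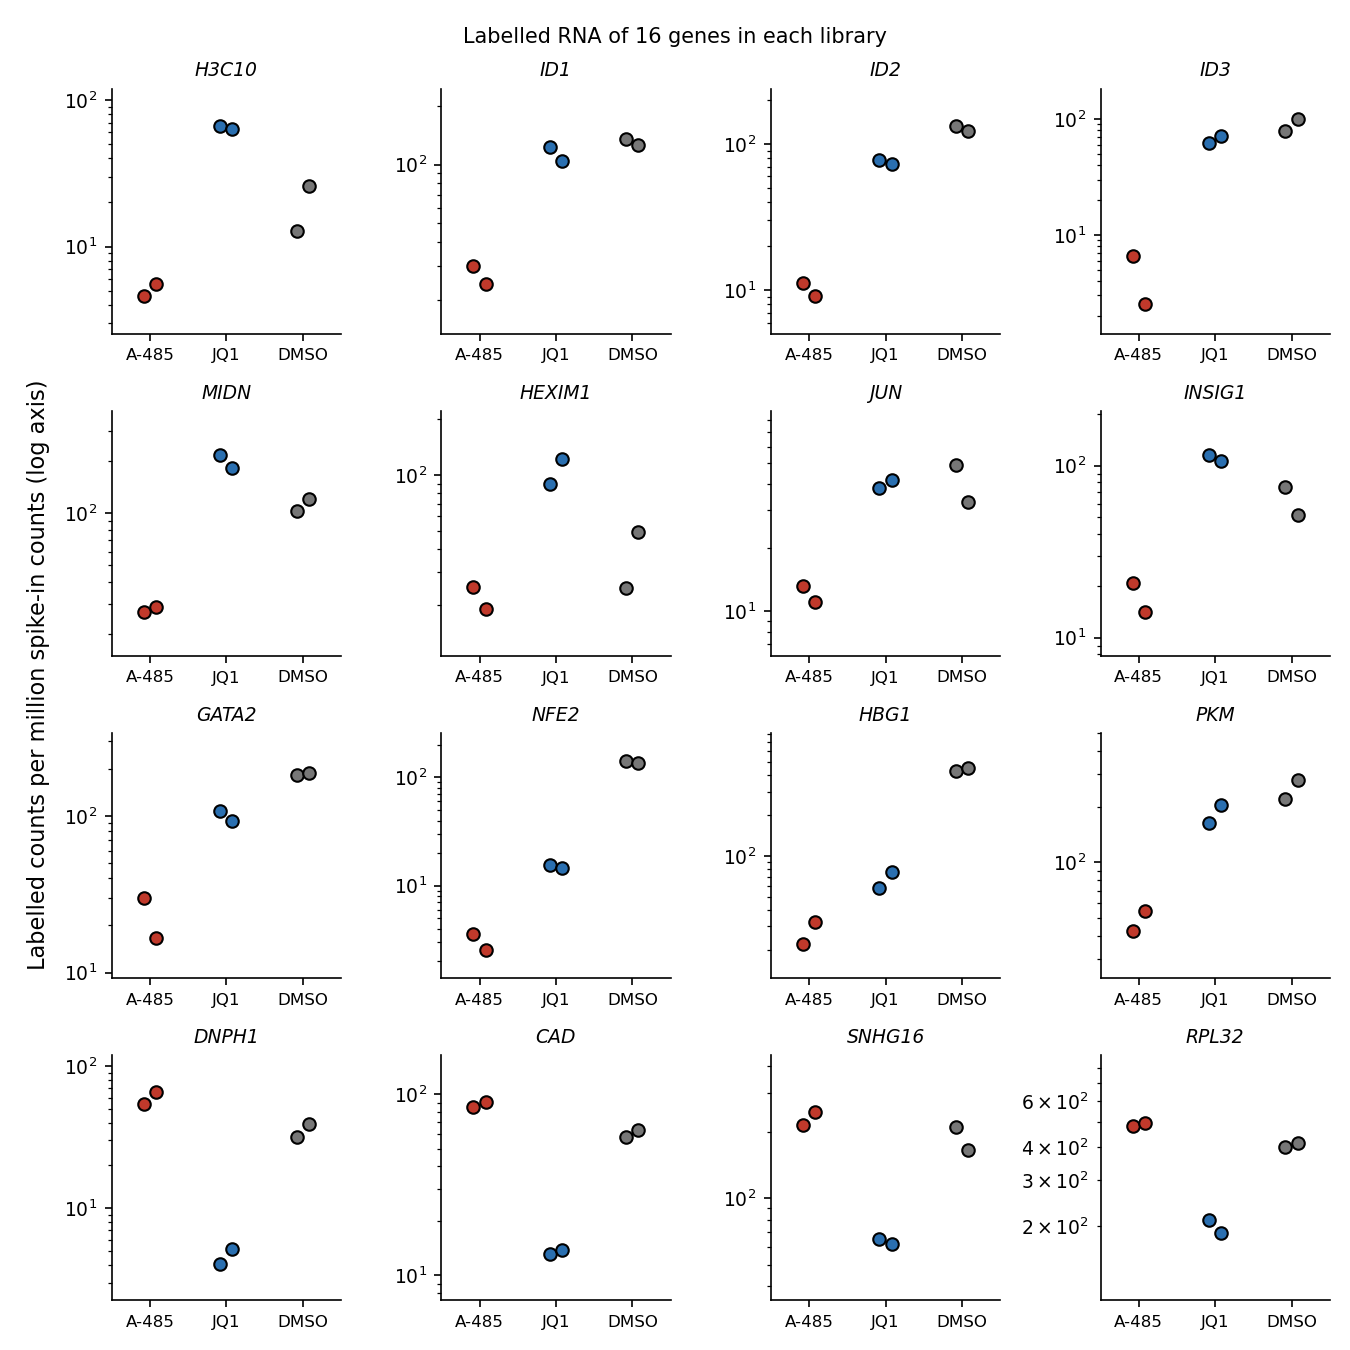
Labelled counts per 1000000 spike-in counts, on log axes, for 16 genes in each A-485, JQ1 and DMSO library; every point is a library. The first 12 genes are lower with A-485 than with JQ1 and the last 4 (DNPH1, CAD, SNHG16 and RPL32) are higher, with no overlap between the drugs; the DMSO points lie between the drugs for MIDN and H3C10 and far above both for HBG1 and NFE2.

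STAT5 targets, which in these BCR-ABL1-positive cells report tyrosine kinase signalling, were lower with A-485 for 6 of 10 measured members in labelled RNA and 5 of 14 in total RNA, with none higher, beside 3.14% and 1.2% of all genes lower. TMM gave 7 lower in labelled and 5 in total RNA, with none higher, beside 8.42% and 1.91% of all genes lower. ID1 belongs to this list as well. PIM2, a survival kinase, had 98 and 94 labelled counts with A-485, 336 and 335 with JQ1 and 271 and 276 in DMSO (log2 -1.68 ± 0.23 SE, adjusted p = 9.99e-11). PIM3, its relative, gave log2 -1.11 ± 0.26 SE, adjusted p = 0.000396. PIM1, a relative of both, was called lower in labelled RNA at log2 -1.30, but that call was fragile. It was lost with DESeq2 (adjusted p = 0.0898), with the 4 compared libraries alone (edgeR, 0.124) and with the replicate block (edgeR, 0.0859). Without JQ1 replicate 1 the labelled PIM1 ratio was -0.46. PIM1 was not called in total RNA (log2 -0.50). In total RNA the PIM2 ratio was only log2 -0.34 ± 0.10 SE, adjusted p = 0.0359 and passed no test without A-485 replicate 1 (adjusted p = 0.132), A-485 replicate 2 (0.348) or JQ1 replicate 1 (0.0887).

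Sterol genes under SREBP control were called in 1 direction. Of the 24 measured members of the cholesterol list 4 were lower in labelled RNA and none was higher, beside 3.14% of all genes lower, and the list median was -0.50. Under TMM 10 were lower, beside 8.42% of all genes. INSIG1, the sterol sensor that retains SREBP in the endoplasmic reticulum, had 41 and 28 labelled counts with A-485, 255 and 226 with JQ1 and 143 and 94 in DMSO (log2 -2.67 ± 0.30 SE, adjusted p = 2.79e-16). INSIG1 lay below DMSO with A-485 and above it with JQ1. In total RNA it had 1046 and 850 counts with A-485, 2449 and 1962 with JQ1 and 1585 and 1425 in DMSO (log2 -1.09 ± 0.12 SE, adjusted p = 2.98e-08). IDI1, an isoprenoid isomerase, was lower at log2 -1.12 ± 0.35 SE, adjusted p = 0.00921 but passed no test without A-485 replicate 1 (adjusted p = 0.133) or JQ1 replicate 2 (0.0669), and 2 of the 4 calls were left without JQ1 replicate 2. The other 20 members passed no test in labelled RNA on the spike-in scale.

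Stress and checkpoint genes were called in both directions on the spike-in scale, where 3.14% of all genes were lower and 24.8% higher. On the TMM scale 8.42% of all genes were lower and 5.43% higher in labelled RNA. GADD45A, a p53 and stress target that restrains the cell cycle, had 4 and 7 labelled counts with A-485, 85 and 102 with JQ1 and 94 and 71 in DMSO (log2 -3.93 ± 0.59 SE, adjusted p = 1.07e-12). The JQ1 counts of GADD45A lay near DMSO and the A-485 counts far below, and its total counts of 98 and 82 with A-485, 403 and 356 with JQ1 and 377 and 357 in DMSO had the same order. AEN, a p53-induced nuclease, was opposite: it had 181 and 257 labelled counts with A-485, 62 and 53 with JQ1 and 213 and 224 in DMSO (log2 2.06 ± 0.27 SE, adjusted p = 2.11e-12). Of the 16 measured p53 targets 4 were lower and 2 higher, on the spike-in and on the TMM scale. PPP1R15A, which restarts translation after stress, had 21 and 40 with A-485, 138 and 127 with JQ1 and 129 and 134 in DMSO (log2 -1.99 ± 0.34 SE, adjusted p = 1e-07), and DESeq2 gave an adjusted p of 0.0722. In total RNA PPP1R15A was lower too (log2 -1.57 ± 0.17 SE, adjusted p = 1.82e-08). HSPA1A and HSPA1B, near-identical HSP70 genes whose reads cannot be assigned with certainty, gave log2 -1.60 ± 0.21 SE, adjusted p = 3.43e-12 and log2 -1.40 ± 0.24 SE, adjusted p = 5.43e-07. Of the 21 measured heat shock genes 4 were lower and 2 higher, while TMM gave 9 lower and none higher. With single libraries left out, 2 to 4 of the p53 targets and 2 to 4 of the heat shock genes were called lower, the fewest without A-485 replicate 1 in both lists and, for p53 targets, also without A-485 replicate 2 or JQ1 replicate 1. TXNIP, a brake on glucose uptake, had 197 and 186 labelled counts with A-485, 701 and 464 with JQ1 and 423 and 332 in DMSO (log2 -1.47 ± 0.20 SE, adjusted p = 2.84e-11). In the list of the integrated stress and unfolded protein responses 4 of 21 were lower and 2 higher, with 2 lower whichever library was left out, and TMM gave 10 lower and none higher. Among 13 apoptosis regulators 1 was lower and 1 higher, and TMM gave 5 lower and none higher. None of the 3 measured interferon genes was called in labelled RNA by edgeR or DESeq2, and 1 had an unadjusted p under 0.05; TMM called 1 lower. The NF-kB list had 3 of 11 measured members called higher in labelled RNA, beside 24.8% of all genes. In total RNA 2 of its 16 measured members were called lower, beside 1.2% of all genes. Under TMM the labelled list had 1 lower and none higher. The labelled calls dropped to 0 without A-485 replicate 2 or JQ1 replicate 2, to 1 without JQ1 replicate 1 and to 2 without A-485 replicate 1.

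Of the 23 measured lineage regulators 3 were lower with A-485, 2 higher and 18 not called in labelled RNA. Over all genes 3.14% were lower and 24.8% higher. Under TMM 7 of these regulators were lower and none higher, beside 8.42% and 5.43% of all genes. MYC had 7 and 19 labelled counts with A-485, 40 and 6 with JQ1 and 109 and 108 in DMSO. The drug libraries of MYC overlapped (log2 -0.68 ± 0.51 SE, adjusted p = 0.321), and in total RNA they stood at 124 and 104 with A-485 and 132 and 128 with JQ1, against 481 and 402 in DMSO (log2 -0.06 ± 0.21 SE, adjusted p = 0.917). TMM scaling (-1.38, adjusted p = 0.0444) and the fit without JQ1 replicate 2 (-1.45, 0.0446) called the labelled MYC ratio lower, and without JQ1 replicate 1 it was 1.19 and not called. MYB, GATA1, TAL1, LMO2 and KLF1 had labelled counts of 2 to 18 under A-485 and 5 to 20 under JQ1, against 34 to 106 in DMSO. None of these 5 passed the test between the drugs, with log2 ratios from -0.98 ± 0.75 for GATA1 to -0.11 ± 0.77 for LMO2, and at such counts the standard errors were 0.54 to 0.77. GATA2 and NFE2 did separate the drugs. GATA2, a haematopoietic progenitor factor, had 59 and 33 labelled counts with A-485, 236 and 197 with JQ1 and 347 and 339 in DMSO (log2 -2.10 ± 0.26 SE, adjusted p = 1.42e-13). NFE2, which drives globin and platelet genes, had 7 and 5 with A-485, 34 and 31 with JQ1 and 270 and 249 in DMSO (log2 -2.28 ± 0.55 SE, adjusted p = 7.81e-05). GATA2 was lower in total RNA as well (log2 -0.59 ± 0.11 SE, adjusted p = 0.000253), while NFE2 passed no test there (log2 -0.16 ± 0.11 SE, adjusted p = 0.463). The calls of higher for ZBTB7A and MAFK were lost under TMM, where ZBTB7A turned to -0.21, and neither was called without A-485 replicate 1 (adjusted p = 0.101 and 0.0669). ZBTB7A was also not called without A-485 replicate 2 (0.187) or JQ1 replicate 2 (0.406).

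Labelled fetal globin RNA was lower with A-485 than with JQ1, and both lay far below DMSO. HBG1 had 44 and 64 labelled counts with A-485, 129 and 161 with JQ1 and 808 and 823 in DMSO (log2 -1.30 ± 0.25 SE, adjusted p = 3.28e-06). Reads of HBG1 and its near-identical neighbour HBG2 cannot be assigned with certainty, and HBG2 gave log2 -1.10 ± 0.27 SE, adjusted p = 0.000579. Labelled reads made up 0.167% and 0.223% of HBG1 reads with A-485, 0.483% and 0.485% with JQ1, and 3.10% and 2.79% in DMSO. The total counts of 26402 and 28674 with A-485 and 26698 and 33219 with JQ1 overlapped DMSO at 26080 and 29526, and the total ratio was log2 0.00 ± 0.11 SE, adjusted p = 0.993. Of the 19 measured genes of the globin and heme list 3 were lower and 2 higher in labelled RNA, beside 3.14% and 24.8% of all genes. TMM gave 5 lower and none higher, beside 8.42% and 5.43% of all genes. The calls of higher were 1 without A-485 replicate 1 or JQ1 replicate 1 and 0 without A-485 replicate 2 or JQ1 replicate 2.

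FLNA, LASP1 and JUP were named for the size of their difference in labelled share. FLNA, the actin crosslinker filamin A, had 13 and 16 labelled counts with A-485, 160 and 203 with JQ1 and 85 and 142 in DMSO (log2 -3.51 ± 0.39 SE, adjusted p = 7.17e-20). Its labelled share was 0.100% and 0.119% with A-485, against 1.12% and 1.27% with JQ1 and 0.645% and 1.00% in DMSO. FLNA total counts were 12942 and 13396 with A-485, 14263 and 15931 with JQ1 and 13169 and 14135 in DMSO, and passed no test (log2 -0.07 ± 0.10 SE, adjusted p = 0.751). LASP1, an actin-binding adaptor, had a labelled share of 0.309% and 0.280% with A-485, 2.02% and 1.88% with JQ1 and 1.92% and 1.57% in DMSO. JUP, the junction protein plakoglobin, had 0.0681% and 0.227% with A-485, 1.39% and 0.981% with JQ1 and 1.55% and 1.20% in DMSO. The share ratios were log2 -3.45 ± 0.37 SE, adjusted p = 6.93e-13 for FLNA, log2 -2.74 ± 0.41 SE, adjusted p = 1.66e-07 for LASP1 and log2 -2.98 ± 0.56 SE, adjusted p = 6.4e-06 for JUP. For LASP1 and JUP the JQ1 shares lay near DMSO and the A-485 shares far below. The JUP ratio was -2.37 without A-485 replicate 1 and -4.06 without A-485 replicate 2. PKM, pyruvate kinase, had 84 and 108 labelled counts with A-485, 360 and 431 with JQ1 and 419 and 505 in DMSO (log2 -1.92 ± 0.22 SE, adjusted p = 1.99e-15), with no difference called in total RNA (log2 -0.05 ± 0.11 SE, adjusted p = 0.86). Of the 21 measured glycolysis and glucose transport genes 4 were lower (PKM, TXNIP and the transporters SLC2A1 and SLC2A3) and 4 higher in labelled RNA. Over all genes 3.14% were lower and 24.8% higher. TMM gave 9 lower and none higher, beside 8.42% and 5.43% of all genes. On the spike-in scale fewer were called in either direction without A-485 replicate 2, and fewer higher without JQ1 replicate 2.

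Genes of the transcription machinery were called in both directions. Of the 26 measured pause release genes 6 were higher and 2 lower, of 11 RNA polymerase II subunits 5 were higher and 1 lower, and of 13 BET and acetyltransferase genes 4 were higher and none lower, beside 24.8% higher and 3.14% lower over all genes. The pause release and acetyltransferase shares are near that background. Under TMM these became 2 and 4, 1 and 1, and 0 and 1, beside 5.43% higher and 8.42% lower over all genes. With 1 library left out the calls of higher were 2 to 4 for the polymerase, with 2 without JQ1 replicate 1 and 3 without either A-485 library, and 1 to 3 for the BET and acetyltransferase list, with 2 without A-485 replicate 1 and 1 without A-485 replicate 2 or JQ1 replicate 1. HEXIM1, the inhibitor that holds P-TEFb in the 7SK particle, had 49 and 38 labelled counts with A-485, 198 and 260 with JQ1 and 47 and 90 in DMSO (log2 -2.27 ± 0.30 SE, adjusted p = 9.87e-12). The A-485 counts overlapped DMSO at its lower library and both JQ1 counts were above it. In total RNA HEXIM1 stood at 989 and 891 with A-485, 1648 and 1872 with JQ1 and 833 and 952 in DMSO (log2 -0.78 ± 0.13 SE, adjusted p = 4.81e-05). CCNT1, the cyclin of P-TEFb, was higher with A-485 (log2 1.26 ± 0.29 SE, adjusted p = 0.000189), although not under TMM (0.55, adjusted p = 0.203). BRD2 counts were 4474 and 4913 with A-485, 6690 and 7109 with JQ1 and 4293 and 4203 in DMSO in total RNA (log2 -0.43 ± 0.10 SE, adjusted p = 0.00559). That BRD2 call was lost without A-485 replicate 1 (-0.37, adjusted p = 0.175) or JQ1 replicate 2 (-0.35, 0.0528). For the targets of A-485, EP300 was called higher in labelled RNA with A-485 (log2 1.11 ± 0.32 SE, adjusted p = 0.00353) and CREBBP as well (log2 1.44 ± 0.52 SE, adjusted p = 0.0224). Neither call held under TMM (adjusted p = 0.448 and 0.369), EP300 was not called without A-485 replicate 2 (0.80, adjusted p = 0.193), and CREBBP was not called with any 1 of the 4 libraries left out (adjusted p = 0.0560 to 0.149). POLR2A, which encodes the catalytic RNA polymerase II subunit RPB1, was the one subunit called lower (log2 -1.03 ± 0.33 SE, adjusted p = 0.0107), with 55 and 61 labelled counts with A-485, 126 and 133 with JQ1 and 44 and 45 in DMSO. That call was lost without A-485 replicate 1 (-0.96, adjusted p = 0.106), A-485 replicate 2 (-1.10, 0.0757) or JQ1 replicate 2 (-0.96, 0.0799).

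The genes with the largest higher values had labelled RNA near or above DMSO with A-485 and far below it with JQ1. MRPL3, a mitochondrial ribosomal protein gene, had 78 and 68 labelled counts with A-485, 2 and 8 with JQ1 and 41 and 68 in DMSO (log2 3.96 ± 0.63 SE, adjusted p = 7.1e-11). GTF3C6, a subunit of RNA polymerase III factor TFIIIC, had 72 and 57 with A-485, 5 and 6 with JQ1 and 56 and 47 in DMSO (log2 3.65 ± 0.62 SE, adjusted p = 3.86e-09). DNPH1, a nucleotide hydrolase, had 106 and 131 with A-485, 9 and 11 with JQ1 and 60 and 71 in DMSO (log2 3.68 ± 0.48 SE, adjusted p = 1.49e-14). All genes of this paragraph were named by rule for a large difference without overlap between the drugs. Among them TADA1, KLHL42, B3GALT6, ADAT2, COCH and ZNF37A had log2 ratios from 3.49 to 3.96. Their JQ1 counts were few, and 1 JQ1 library held 0 for TADA1 and KLHL42. Without JQ1 replicate 1 COCH was 2.91, KLHL42 2.94, ADAT2 4.75 and ZNF37A 4.17, and without JQ1 replicate 2 TADA1 was 3.02 and COCH 4.75. TADA1, an adaptor of the SAGA acetyltransferase complex, was not called by DESeq2 (adjusted p = 0.109). MRPL3 was 3.26 without JQ1 replicate 1 and 5.26 without JQ1 replicate 2. In total RNA MRPL3 passed no test (log2 0.15 ± 0.11 SE, adjusted p = 0.483).

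Genes of protein and nucleotide synthesis were called only in the higher direction in labelled RNA on the spike-in scale, where 24.8% of all genes were called higher. That background includes many genes with few labelled counts. With a filter of at least 50 counts in 2 libraries, 1165 of 2361 genes were called higher, a larger background for lists of well-expressed genes. Of 76 measured cytosolic ribosomal protein genes 57 were higher and none lower, with a median log2 ratio of 0.92 against 0.72 over all genes. RPL32 had 950 and 984 labelled counts with A-485, 469 and 399 with JQ1 and 757 and 752 in DMSO (log2 1.29 ± 0.17 SE, adjusted p = 9.87e-12). RPS27A, which encodes ribosomal protein fused to ubiquitin, gave log2 1.16 ± 0.17 SE, adjusted p = 9.08e-10. None of the 78 ribosomal protein genes tested in total RNA was called by edgeR or DESeq2, and 10 had an unadjusted edgeR p under 0.05. On the TMM scale 20 of the 76 labelled genes were still called higher and none lower, beside 5.43% and 8.42% of all genes. Ribosome biogenesis genes, many of them MYC targets, were higher for 31 of 48 in labelled RNA and 15 of 50 in total RNA, with none lower, beside 24.8% and 5.38% of all genes, and TMM left 8 higher and 2 lower in labelled RNA. Without A-485 replicate 2 or JQ1 replicate 2 the 31 became 19, and without A-485 replicate 1 or 2 the 15 became 7. TAF1D, a polymerase I factor, was higher in total RNA (log2 0.55 ± 0.10 SE, adjusted p = 0.00041). CAD, the enzyme of the first steps of pyrimidine synthesis, had 168 and 181 labelled counts with A-485, 29 and 29 with JQ1 and 110 and 115 in DMSO (log2 2.71 ± 0.33 SE, adjusted p = 1.81e-14). GART, of purine synthesis, gave log2 1.67 ± 0.28 SE, adjusted p = 1.9e-07. In the nucleotide synthesis list 11 of 25 members were higher and none lower. The count of higher was 5 under TMM (with 1 lower), 5 without A-485 replicate 2 and 6 without JQ1 replicate 1.

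Respiratory chain genes are encoded in 2 genomes. Of 67 measured nuclear-encoded members 29 were higher with A-485 and none lower in labelled RNA, beside 24.8% of all genes higher, and the list median was 0.88. Among genes with at least 50 counts in 2 libraries, 1165 of 2361 were higher, so the list does not stand out from well-expressed genes by its calls. The difference between the nuclear and the mitochondrial list was not tested. COX4I1, a cytochrome oxidase subunit, had 333 and 334 labelled counts with A-485, 153 and 143 with JQ1 and 263 and 226 in DMSO (log2 1.30 ± 0.22 SE, adjusted p = 2.25e-07), and ATP5PO, an ATP synthase subunit, gave log2 1.63 ± 0.25 SE, adjusted p = 3.61e-09. None of the 11 measured mitochondrially encoded messages was called in either direction by edgeR or DESeq2, none had an unadjusted p under 0.05, and their log2 ratios ran from -0.32 to 0.50 with a median of 0.12. Mitochondrial messages are made by a separate polymerase. Under TMM the nuclear list had 8 higher and 1 lower and the mitochondrial list none higher and 8 lower. Over all genes TMM gave 5.43% higher and 8.42% lower. Without single libraries the nuclear count was 15 (A-485 replicate 1), 13 (A-485 replicate 2), 18 (JQ1 replicate 1) and 18 (JQ1 replicate 2). No member of either list was called in total RNA by edgeR or DESeq2, where 6 of 72 nuclear-encoded and 0 of 12 mitochondrial genes had an unadjusted p under 0.05.

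**Figure D4:**
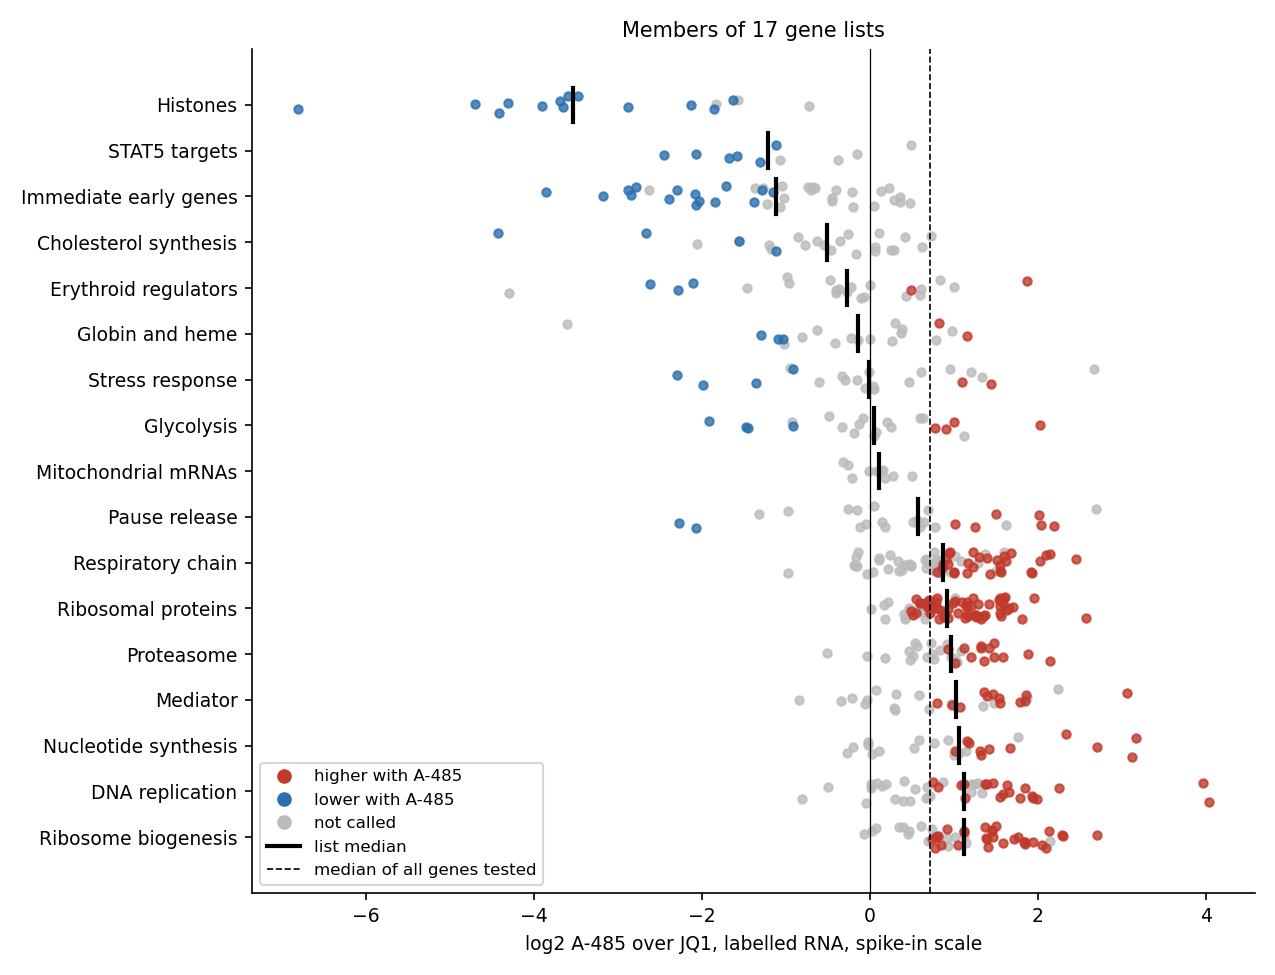
Log2 ratio of A-485 over JQ1 in labelled RNA for each measured member of 17 gene lists, with called genes in colour, the list median as a black bar and the median of all genes tested (0.72) as a dashed line. Histone members lie to the left of 0 and ribosomal protein members to the right; the leftmost histone point has no A-485 count and is a fitted value, not a fold.

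Cell cycle and RNA-processing genes were called only in the higher direction in labelled RNA on the spike-in scale. There 24.8% of all genes were called higher and the median of all genes was 0.72. With a filter of at least 50 counts in 2 libraries, 1165 of 2361 genes were called higher, a larger background for well-expressed genes. On the TMM scale 5.43% of all genes were higher and 8.42% lower. DNA replication genes were higher for 20 of 43 and none lower; MCM3 and MCM7, helicase subunits, gave log2 1.37 ± 0.22 SE, adjusted p = 7.36e-08 and log2 1.39 ± 0.24 SE, adjusted p = 1.97e-07. The replication count was 11 without A-485 replicate 2 or JQ1 replicate 1, and TMM left 6 higher and 1 lower. G2 and mitosis genes were higher for 12 of 43, a share near the 24.8% of all genes, with a list median of 0.72 that equals that of all genes. PLK1, a mitotic kinase, gave log2 1.57 ± 0.24 SE, adjusted p = 1.01e-08. TMM left 1 higher and 3 lower, and the count was 7 without A-485 replicate 1 and 5 without A-485 replicate 2. Genes of mRNA decay were higher for 19 of 44, with 7 left under TMM, 10 without A-485 replicate 2 and 12 without JQ1 replicate 2. EXOSC8, a core exosome subunit, gave log2 2.06 ± 0.34 SE, adjusted p = 4.31e-08. Proteasome genes were higher for 13 of 31, with 1 higher and 1 lower under TMM and 8 without A-485 replicate 2. Mediator genes were higher for 12 of 28, with 1 higher and 1 lower under TMM, and 5, 2 and 5 calls without A-485 replicate 1, A-485 replicate 2 and JQ1 replicate 1. SNHG16, a noncoding host of small nucleolar RNAs, had 425 and 491 labelled counts with A-485, 145 and 131 with JQ1 and 400 and 300 in DMSO (log2 1.86 ± 0.21 SE, adjusted p = 1.47e-15). Among the snoRNA hosts 7 of 15 were higher on the spike-in scale, but on the TMM scale 3 were higher and 6 lower. GAS5, at 0.48 on the spike-in scale, was at -0.23 under TMM. In total RNA 4 of 15 snoRNA hosts were higher and 1 (SNHG12, log2 -0.41) was lower, beside 5.38% and 1.2% of all genes. Splicing factors and CLK kinases were higher for 7 of 17, with 1 higher and 1 lower under TMM and 3 without A-485 replicate 2.

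Zinc finger genes of the ZNF family, mostly short-lived messages of transcriptional repressors, were called higher far more often than lower. In labelled RNA 69 of 224 were higher and 1 lower, beside 24.8% and 3.14% of all genes. In total RNA 68 of 367 were higher and 1 lower, beside 5.38% and 1.2% of all genes. Their median total log2 ratio was 0.41 against 0.13 over all genes. Under TMM 15 of the 224 were higher in labelled RNA, a share near the 5.43% of all genes, and 1 was lower, beside 8.42%. In total RNA TMM gave 37 of the 367 higher and 2 lower, beside 2.33% and 1.91% of all genes. Leaving out A-485 replicate 1, A-485 replicate 2, JQ1 replicate 1 or JQ1 replicate 2 gave 38, 28, 43 and 39 labelled and 28, 34, 48 and 47 total calls of higher. ZNF24 had 187 and 211 labelled counts with A-485, 80 and 74 with JQ1 and 157 and 204 in DMSO, a 2.82-fold higher level with A-485. ZNF507 had 148 and 201 total counts with A-485, 52 and 45 with JQ1 and 112 and 153 in DMSO (log2 1.97 ± 0.26 SE, adjusted p = 1.07e-06), and ZKSCAN4, a related zinc finger gene, had 61 and 79 with A-485, 12 and 16 with JQ1 and 58 and 42 in DMSO (log2 2.44 ± 0.46 SE, adjusted p = 0.000391). For both genes the A-485 libraries were above the JQ1 libraries and close to or above DMSO.

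Housekeeping and panel genes are given for scale. GAPDH, a glycolytic enzyme, gave log2 -0.02 ± 0.10 SE, adjusted p = 0.95 in total RNA and log2 -0.33 ± 0.22 SE, adjusted p = 0.244 in labelled RNA, and ACTB, cytoplasmic actin, gave log2 0.00 ± 0.10 SE, adjusted p = 0.991 and log2 -0.18 ± 0.21 SE, adjusted p = 0.533. TFRC, the transferrin receptor, and MCL1, a survival factor, gave log2 -0.42 ± 0.23 SE, adjusted p = 0.163 and log2 -0.40 ± 0.24 SE, adjusted p = 0.19 in labelled RNA. In total RNA MCL1 was lower (log2 -0.50 ± 0.11 SE, adjusted p = 0.00192), though not without A-485 replicate 1 (-0.47, adjusted p = 0.0682). Under TMM all 4 of these genes were called lower in labelled RNA, GAPDH at -1.04, ACTB at -0.89, TFRC at -1.12 and MCL1 at -1.11. In total RNA CDK9, the kinase of P-TEFb, and BCL2L1, another survival factor, gave log2 0.43 ± 0.47 SE, adjusted p = 0.68 and log2 0.08 ± 0.12 SE, adjusted p = 0.767.

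EPCAM, an epithelial adhesion gene, had 23 and 4 labelled counts with A-485, 0 and 0 with JQ1, and 31 and 27 in DMSO. That was at least 9.84-fold higher with A-485, by a bound of 3 counts over the JQ1 group, and it passed no test without A-485 replicate 1 (adjusted p = 0.0685) or with DESeq2 (0.145). Its total counts lay between 929 and 1116 in all 6 libraries. In all, 26 genes called higher in labelled RNA had no labelled count with JQ1, and 9 called lower had none with A-485.

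The differences are also given by gene structure and by labelled share. By gene span, the median labelled log2 ratio was 0.73 under 5 kb, 0.85 at 5 to 20 kb, 0.79 at 20 to 50 kb, 0.71 at 50 to 100 kb and 0.49 over 100 kb. Genes called lower made up 8.62% of those under 5 kb and 1.63% of those over 100 kb, and 13.6% of genes with a single exon. Genes called higher made up 29.7% under 5 kb and 16.1% over 100 kb. Genes were then sorted into 5 bins by their labelled share in DMSO, which uses neither drug. Medians and calls of higher ran in opposite directions over these bins in total and labelled RNA, and calls of lower did not. For total RNA, medians ran from 0.10 in the lowest bin through 0.12, 0.15 and 0.19 to 0.22 in the highest. Calls of higher took up 1.20% of the lowest bin and 15.4% of the highest, and calls of lower 0.528% and 3.75%. For labelled RNA, medians ran from 0.83 in the lowest bin through 0.77, 0.76 and 0.71 to 0.61 in the highest, and calls of higher took up 30.4% of the lowest and 22.4% of the highest, and calls of lower 2.02% and 3.59%. For the labelled share itself, medians ran from 0.72 to 0.43 and calls of higher from 26.6% to 4.06%. Bins hold 2082 genes or fewer and are described with no test.

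**Figure D5:**
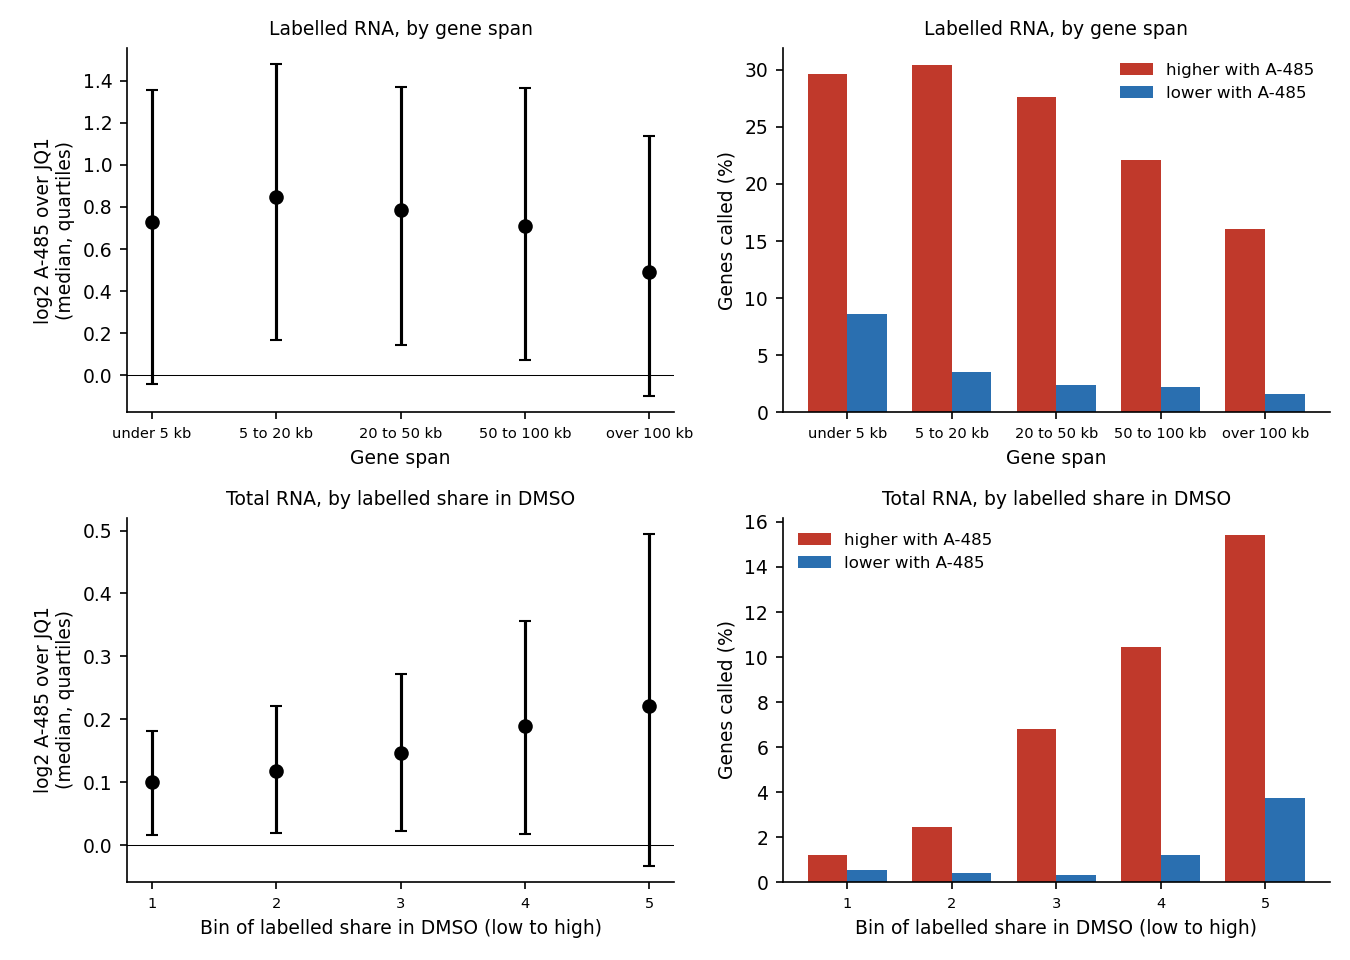
Median and quartiles of the log2 ratio of A-485 over JQ1 (left) and percent of genes called (right), for labelled RNA by gene span (top) and for total RNA by bins of the labelled share in DMSO, low to high (bottom). The labelled median is 0.49 in the longest genes, calls of lower are commonest in the shortest (8.62%), and total RNA calls of higher reach 15.4% in the bin of highest labelled share.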

How the data were processed

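K562 cells were profiled by SLAM-seq with 3′ end sequencing, in 5 groups of 2 libraries. The authors deposited counts per gene: labelled reads, total reads and reads of a Drosophila spike-in, which per the labels' protocols was added as 5% of purified RNA. Per the submitters' processing notes, Trim Galore 0.6.5, bcl2fastq 2.17.1.14 and bedtools were among the tools, with builds hg38 and dm6. For the aligner and the conversion caller the sources used here give no name, and errors of either could not be assessed.

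Libraries were scaled to their spike-in column sum. Genes with at least 10 counts in 2 libraries were fitted with edgeR 4.0.16 (R 4.3.3), robust quasi-likelihood, over all 10 libraries, which share the estimate of spread, and A-485 was contrasted with JQ1. P-values were adjusted by Benjamini-Hochberg with a threshold of 0.05. The labelled share was fitted as labelled against unlabelled counts with a library term. Fits were tested on simulated data. Alternatives were TMM, DESeq2 1.42.0, the 4 compared libraries alone, count filters of 50 and 1, a replicate block, the share over total counts, and leaving out each library. Gene positions are from GENCODE 29 and promoters from RefSeq (GRCh38.p14). Some named genes overlap a gene with many total counts over the 4 A-485 and JQ1 libraries. Examples are GART with SON (11299) and COX4I1 with EMC8 (6546) on opposite strands, and HBG2 with HBE1 (22392) on the same strand. How reads of such overlaps were assigned could not be checked. Genes were named by rule: a panel of 25 regulators and reference genes, the 10 (labelled), 8 (total) and 5 (share) largest changes in each direction without overlap and with a mean of 50 counts, and up to 3 called members per list. Some genes of the text, such as ZNF24, ZNF507 and EPCAM, were also looked at after their values were seen. The comparison, the 30 gene lists and the rule were chosen with earlier results of these data known.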

Additional observations from a re-analysis of the deposited data

How the results depend on the processing

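With TMM scaling, labelled RNA gave 434 genes higher and 673 lower with A-485, and total RNA 339 and 278. ZBTB7A (-0.21), POLR2J (-0.10), SRSF3 (-0.15) and GAS5 (-0.23) then turned negative in labelled RNA, since TMM removes the library-wide ratio. Of 113 labelled values of named genes, 71 kept direction and call under TMM, 32 lost the call and 6 gained it, and DESeq2 kept 106. A filter of 50 counts left 1165 labelled genes higher, with fewer genes tested. Leaving out 1 library, which also removes a sample, gave 889 to 1441 higher and 143 to 167 lower in labelled RNA, 277 to 662 and 94 to 173 in total RNA, and 391 to 773 and 52 to 87 for the labelled share. The lone library of a drug is then assumed to vary like the other groups. The replicate block gave 1265 higher in total RNA; the cause was not tested. The labels do not say that equal numbers share a culture or day, and the replicate differences of A-485 and JQ1 correlated at 0.0476 (labelled, 845 genes) and 0.179 (total, 9725 genes) across genes, with only 2 pairs. With the block the labelled calls were 1767 and 214. Labelled counts of single genes were often under 50, and there small differences between the drugs were not detectable at this depth.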
